A study of Mus musculus with 17 samples.

Results

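The genes described are 38 core genes of cell adhesion, chosen as a named list: 24 genes of integrin chains (17 alpha chains and 7 beta chains) and 14 genes of the cytoplasmic proteins that integrins gather at a focal adhesion. They were found by symbol among the 31091 gene identifiers of the count table, and all 38 were present. They were measured in sorted mouse dendritic cells that had been given medium of live, apoptotic or necroptotic tumor cells. Of these genes, 8 were too rare to measure in both subsets, and 3 more in cDC2s alone.

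Integrins are receptors built of an alpha and a beta chain, which hold a cell to the matrix and to other cells. Talin and kindlin bind the tail of the beta chain and switch the receptor on, the complex of Ilk, Lims1 and a parvin ties it to the cell's interior, vinculin and zyxin join it to actin where force is carried, and the kinases FAK and Pyk2 signal from it. Leukocytes carry receptors of the beta 2 family, such as LFA-1 and Mac-1, for which Fermt3 (kindlin-3) is the blood cell's own kindlin, and some beta 2 and alpha V receptors take part in the uptake of opsonized particles and of dead cells.

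Type 1 and type 2 conventional dendritic cells (cDC1s and cDC2s) came from spleens of 8-week-old female C57BL/6JRj mice, pooled from at least 2 mice, that carried a subcutaneous B16 tumor secreting FLT3 ligand to raise the number of these cells. Cells enriched on CD11c beads were held for 6 h, in the presence of GM-CSF, with medium of 1 of 3 kinds. WT medium came from TC-1 tumor cells, a mouse lung carcinoma line, BimS medium from TC-1-iBimS cells dying by apoptosis, and RIPK3 medium from TC-1-iRIPK3 cells dying by necroptosis. The inducer cumate was given to all 3 lines, WT included, and both inducible lines are clones, so that clone and mode of death cannot be told apart. After culture cDC1s and cDC2s were sorted, and there were 3 samples in each of 5 groups and 2 samples of cDC2s with RIPK3 medium. The labels name no separate animals or cultures behind the replicate numbers, so a p-value measures the spread between these samples, which may be partly technical.

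The samples held between 16095159 and 21645289 reads on genes. Levels are given as CPM, reads scaled to a library of 1000000 reads after TMM normalization. The sorted subsets matched their names: the summed level of 8 cDC1 markers was between 1543 and 1879 CPM in cDC1s and between 99.7 and 137 CPM in cDC2s, and that of 8 cDC2 markers was between 2.39 and 4.60 CPM in cDC1s and between 249 and 338 CPM in cDC2s. In these bulk samples fewer cells of a type and less RNA per cell cannot be told apart.

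Both subsets used a similar core set, headed by Itgb1. To compare genes with each other, levels were divided by the length of all exon bases of the gene (RPKM), which understates genes with long, rarely used exons such as Itga1, with 21337 exon bases. Itgb1, the beta chain shared by most matrix receptors, had the highest level per length in both, at a median of 148 RPKM in the 9 cDC1 samples (133 to 182) and 151 RPKM in the 8 cDC2 samples (127 to 198). No other member reached its range. The next were Tln1 (talin 1), Fermt3 and Itgb2, at medians of 76.5, 70.0 and 66.4 RPKM in cDC1s and 46.1, 58.3 and 48.5 RPKM in cDC2s. Over the 3 media together the samples of these neighbours overlapped in both subsets. Within a medium they could be apart: in cDC1s with WT medium Tln1, at 76.5 ± 1.32 RPKM (SD, n = 3), was above Fermt3, at 50.9 ± 0.669 RPKM, and Itgb2, at 47.6 ± 1.962 RPKM. In cDC1s the alpha chains with the highest level per length were Itgal (37.0 RPKM), Itgax (28.6 RPKM) and Itga1 (27.3 RPKM). In cDC2s they were Itga5 (24.0 RPKM), Itgax (22.2 RPKM) and Itgam (9.81 RPKM), whose samples overlapped with those of Itga4 (9.43 RPKM). Ilk was at medians of 25.3 and 23.6 RPKM in the subsets. Zyx, at medians of 35.7 and 32.6 RPKM, depended on the medium, with 22.3 ± 1.11 RPKM in cDC1s and 30.1 ± 1.19 RPKM in cDC2s (SD, n = 3) in WT medium.

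**Figure D1:**
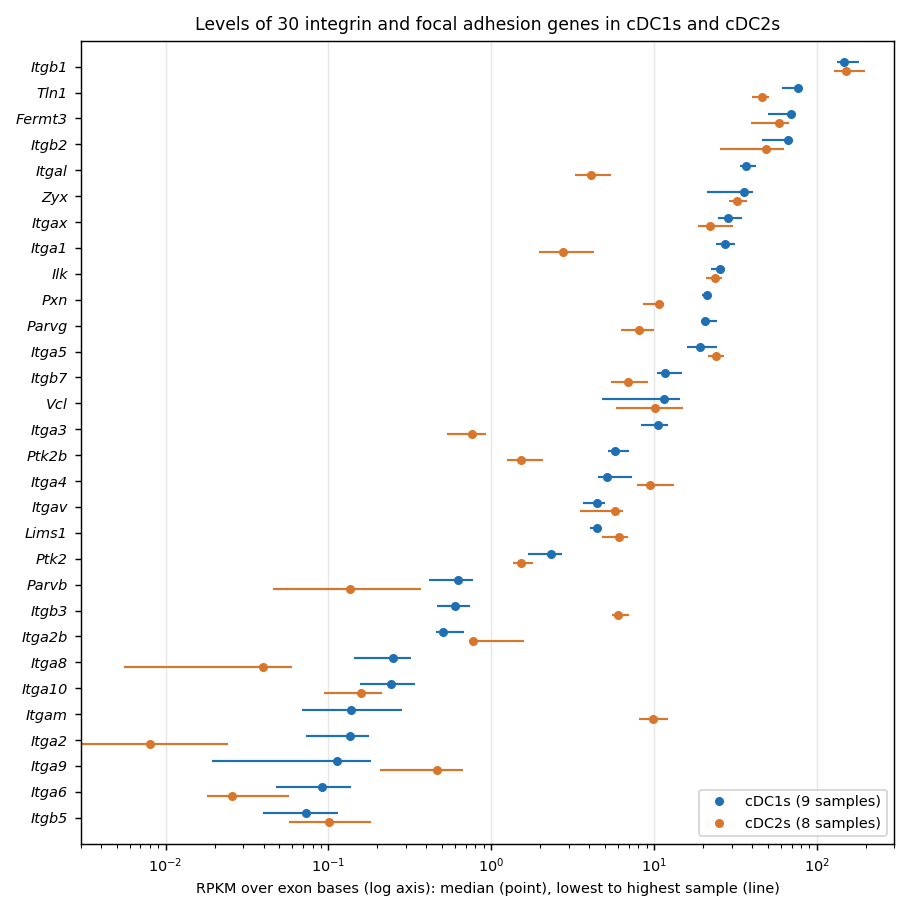
Level per exon length (RPKM, log axis) of the 30 members that were measurable in at least 1 subset, with the median over all samples of a subset as a point and the lowest to highest sample as a line, in 9 cDC1 samples (blue) and 8 cDC2 samples (orange). Itgb1 stands at the top in both, while Itgal, Itga1 and Itga3 lie far to the right in cDC1s and Itgam and Itgb3 in cDC2s. The line of Itga2 in cDC2s begins at 0, which the axis does not show.

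A member was called too rare to measure where its mean count was under 10 reads in every group of a subset. This held in both subsets for Itga7, Itga11, Itgad, Itgb4, Itgb6, Tln2, Fermt2 and Parva. Most of these are known from muscle, epithelium or connective tissue, such as Itga7, Itgb4 and Fermt2 (kindlin-2). Itga11 had 1 read in all cDC1 samples together and 2 reads in all cDC2 samples. In cDC2s it also held for Itga2, Itga6 and Itga8. Itga11 was not tested in any comparison, nor were Parva and Tln2 in cDC2s and Parva in the fits over both subsets, as they had reads in under 50% of the samples. That left 37 members tested in cDC1s, 35 in cDC2s and 36 in the interactions. Itgax and Itgam were used in the sort and so were left out of the comparison of subsets, which tested 34.

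Among the members not used in the sort, the largest differences were between the subsets, in 4 alpha chains that were higher in cDC1s and in the beta chain Itgb3, which was lower. Members were compared between cDC1s and cDC2s in a fit of all 17 samples that also held the medium (edgeR quasi-likelihood test, p-values adjusted over all genes). Of 34 members tested, 23 differed, 16 of them higher in cDC1s and 7 lower, which is 67.6% of the members against 59.8% of all genes. Among genes with a mean log2 CPM of 3 or more it was 16 of 20 members (80.0%) against 80.7% of genes, so the count of differences was near that of other genes of that level. The median log2 difference was 0.50 over the members tested and 0.03 over all genes. With the replicate block 24 members differed, against 60.7% of all genes, with Itgb5 lower in cDC1s in addition (-0.55, edgeR, adjusted p = 0.0383).

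The chains higher in cDC1s were led by Itga3, Itga2, Itga1 and Itgal. Itga3, the alpha chain of a laminin receptor (chr11:94935296-94967682, GRCm39), was at 63.9, 71.1 and 65.4 CPM in cDC1s with WT medium, 48.2, 61.7 and 53.3 CPM with BimS medium and 57.8, 63.9 and 55.7 CPM with RIPK3 medium. The cDC2s held 4.207, 4.532 and 5.395 CPM with WT medium, 3.10, 3.56 and 4.35 CPM with BimS medium, and 5.17 and 5.27 CPM with RIPK3 medium. Every cDC1 sample was above every cDC2 sample (log2 difference 3.76, SE 0.0741, adjusted p = 1.81e-27).

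Itga1, a collagen receptor chain (chr13:115089632-115238677), was at 552, 529 and 513 CPM in cDC1s with WT medium, 604, 668 and 624 CPM with BimS medium and 628, 582 and 517 CPM with RIPK3 medium. In cDC2s its 8 samples ranged from 41.9 to 92.0 CPM, with 54.8, 63.4 and 41.9 CPM in WT medium, 69.6, 92.0 and 53.9 CPM in BimS medium, and 53.0 and 66.7 CPM in RIPK3 medium. The subsets did not overlap (log2 difference 3.24, SE 0.108, adjusted p = 2.09e-13). Itga2, a further collagen receptor chain, was low in cDC1s and too rare in cDC2s, with 167 reads in all cDC1 samples and 10 reads in all cDC2 samples. In cDC1s it was at 0.897, 1.119 and 1.257 CPM with WT medium, 0.764, 1.07 and 0.979 CPM with BimS medium and 0.961, 0.703 and 0.518 CPM with RIPK3 medium. The cDC2 samples held 1, 3 and 1 reads with WT medium, 1 read each with BimS medium, and 2 and 0 reads with RIPK3 medium, and none reached the lowest cDC1 sample, which had 9 reads. Its share of reads was 13.1-fold higher in cDC1s (exact 95% interval 6.95 to 27.8, counting error only).

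Itgal, the alpha chain of LFA-1 that binds ICAMs (chr7:126895432-126934320), was at 267, 268 and 278 CPM in cDC1s with WT medium, 226, 245 and 238 CPM with BimS medium and 223, 243 and 225 CPM with RIPK3 medium. The cDC2s held 28.9, 35.6 and 24.8 CPM with WT medium, 21.7, 34.6 and 22.8 CPM with BimS medium, and 21.6 and 31.5 CPM with RIPK3 medium. All cDC1 samples were higher, with a log2 difference of 3.16 (SE 0.0972, adjusted p = 9.29e-15). Its beta chain Itgb2 differed far less, with a log2 difference of 0.45 (SE 0.0654, adjusted p = 2.64e-06) and samples of the subsets that overlapped.

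The chains lower in cDC1s were led by Itgb3, Itga9 and Itga4, with Itgam, which was used in the sort. Itgb3, which pairs with alpha V as a receptor for vitronectin (chr11:104498826-104561302), was at 4.23, 4.88 and 3.95 CPM in cDC1s with WT medium, 3.97, 4.21 and 3.09 CPM with BimS medium and 3.74, 4.82 and 3.39 CPM with RIPK3 medium. The cDC2s held 41.0, 40.0 and 46.2 CPM with WT medium, 39.4, 36.3 and 37.2 CPM with BimS medium, and 44.5 and 39.8 CPM with RIPK3 medium. All cDC2 samples were higher (log2 difference -3.33, SE 0.0683, adjusted p = 4.20e-27). Its alpha partner Itgav was also lower in cDC1s, by less, at a log2 difference of -0.34 (SE 0.0847, adjusted p = 1.95e-03), and the subsets overlapped.

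CD11c, the product of Itgax, served to enrich and gate both subsets, and CD11b, the product of Itgam, to gate cDC2s, so the levels of these 2 genes describe the sort and were not counted or tested between subsets. Itgam (chr7:127661808-127717753) was at 0.897, 0.610 and 0.539 CPM in cDC1s with WT medium, 0.560, 0.701 and 1.44 CPM with BimS medium and 0.354, 0.753 and 0.748 CPM with RIPK3 medium. In cDC2s it was at 43.7, 53.9 and 44.6 CPM with WT medium, 52.0, 62.7 and 48.4 CPM with BimS medium, and 41.5 and 52.3 CPM with RIPK3 medium. A further gene model, Gm49368, shares 67.4% of the exon bases of Itgam on the same strand and held 11 reads in cDC2s against 7050 for Itgam. Itgax (chr7:127728668-127749829) was at 121, 138 and 139 CPM in cDC1s with WT medium, 126, 144 and 146 CPM with BimS medium and 135, 170 and 156 CPM with RIPK3 medium. In cDC2s it was at 91.3, 121 and 98.6 CPM with WT medium, 90.1, 134.9 and 112.5 CPM with BimS medium, and 103 and 147 CPM with RIPK3 medium, and the subsets overlapped.

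Of 13 cytoplasmic members tested between the subsets, 7 were higher in cDC1s and 1 was lower. Over all genes 30.4% were higher and 29.4% lower (59.8% in either direction). Higher in cDC1s were Parvb (log2 difference 2.00) and Parvg (1.37), 2 of the 3 parvins, the kinase Ptk2b (Pyk2, 1.91), the scaffold Pxn (paxillin, 1.00), Tln1 (0.71), the kinase Ptk2 (FAK, 0.54) and Fermt3 (0.24). Lims1, the partner of Ilk, was lower (-0.45). Ilk (0.09), Vcl (-0.11) and Zyx (-0.07) did not pass the test. For Zyx this value averages over media in which the order of the subsets turned, with cDC1s lower in WT medium (211 ± 10.6 against 285 ± 11.2 CPM, without overlap) and not in BimS medium (366 ± 25.1 against 333 ± 17.4 CPM, SD, n = 3, with overlap). Among the remaining integrin chains, Itgb7 (0.73) and Itga10 (0.54) were higher in cDC1s, and Itga2b (-0.70) and Itga5 (-0.33) were lower. Itga8 and Itga6 were higher in cDC1s too, but were too rare in cDC2s, with 54 and 46 reads in all, so that only the 95% intervals of the log2 difference are given, 2.20 to 3.19 for Itga8 and 1.10 to 2.14 for Itga6. Itgb1 was even, with a log2 difference of -0.01 (95% interval -0.08 to 0.06, adjusted p = 0.868), although limma on unscaled log2 counts called it higher in cDC1s. Itga2b, the alpha chain of the platelet receptor, was at 5.95, 7.63 and 12.9 CPM in cDC2s with WT medium, 5.96, 6.15 and 6.50 CPM with BimS medium, and 6.08 and 6.50 CPM with RIPK3 medium. Its highest sample, WT replicate 3, also had the highest summed level of platelet markers among cDC2s, 11.8 CPM, and without it the log2 difference was -0.55 (edgeR, adjusted p = 3.22e-06).

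With dying tumor cells in place of live ones, members changed in both subsets, and the number called in cDC2s depended on whether the replicate numbers entered the fit. In cDC1s 14 of 37 members tested passed the test with BimS medium, 8 higher and 6 lower than with WT medium, which is 37.8% against 13.2% of all genes. With RIPK3 medium 14 members passed, 7 higher and 7 lower, again 37.8% against 16.5% of all genes. The list was chosen with earlier results of these data known, which limits what these shares can show. With limma on log2(count + 1) the counts were 7 and 13, against 7.74% and 14.1% of all genes. With the replicate number as a block 14 and 17 members passed, against 17.9% and 21.0% of all genes. In cDC2s 4 of 35 members passed with each medium without the block, against 7.01% and 7.21% of all genes, and 16 and 11 with it, against 21.3% and 21.4%. The counts were not compared between the subsets by a test. Within a subset both comparisons share the WT samples, so their calls are not independent. A background of genes with a mean log2 CPM of 3 or more was chosen with the values in view. In it the members called in cDC1s were 14 of 20 (70.0%) with BimS medium, against 25.8% of genes, and 13 of 20 (65.0%) with RIPK3 medium, against 31.7%. The median log2 fold change of the members was 0.07 and 0.12, against 0.00 and -0.01 over all genes, so the list as a whole had no common direction.

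Levels of other cell types' genes moved with the medium too. The summed level of 10 macrophage markers was between 16.1 and 20.6 CPM in cDC1s with WT medium, between 84.4 and 115 CPM with BimS medium and between 56.9 and 72.9 CPM with RIPK3 medium. In cDC2s it was between 22.4 and 37.8 CPM, between 64.5 and 76.0 CPM, and between 60.4 and 74.1 CPM. Of these 10 genes 2 passed the test upward in each comparison with WT medium, Spic and Slc40a1, up to 2 passed downward, and Mertk and the 3 C1q genes stayed at or under 1.19 CPM on average in every group. The sum of 9 platelet markers in the table was between 3.09 and 3.86 CPM in cDC1s with WT medium, between 25.7 and 29.8 CPM with BimS medium and between 20.2 and 27.2 CPM with RIPK3 medium. It was carried by Ppbp and Pf4, the 2 of 9 that passed, and 3 of the 9 had no read in each of these groups. The platelet integrin chain Itga2b did not pass with either medium, at 4.08, 5.60 and 4.62 CPM with WT medium, 3.77, 4.44 and 3.87 CPM with BimS medium and 5.01, 4.12 and 4.03 CPM with RIPK3 medium. In cDC2s no platelet marker passed, and the sum was 1.54, 1.72 and 11.8 CPM with WT medium, between 2.55 and 4.17 CPM with BimS medium, and 3.10 and 4.51 CPM with RIPK3 medium. Markers of the adherent tumor cell summed to between 5.41 and 8.18 CPM in all cDC1 samples and averaged 37.1 CPM in cDC2s with WT medium, 29.0 CPM with BimS and 25.5 CPM with RIPK3 medium. Of these averages Cdh1 alone made up 32.7, 25.6 and 20.4 CPM, and the other 16 genes of the 17 in the table summed to between 3.00 and 5.95 CPM in every cDC2 sample and between 5.34 and 7.98 CPM in every cDC1 sample. Of 8 T and NK cell markers, which summed to 3.14 CPM or less in every sample, Cd247 passed upward in cDC1s with each medium and Cd3g downward in cDC2s with BimS medium. Of 7 neutrophil markers, which summed to 2.00 CPM or less, Ngp passed downward in cDC2s with BimS medium. No marker of B cells or plasmacytoid dendritic cells passed against WT medium in edgeR. The part of these cells in the results below was not tested.

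**Figure D2:**
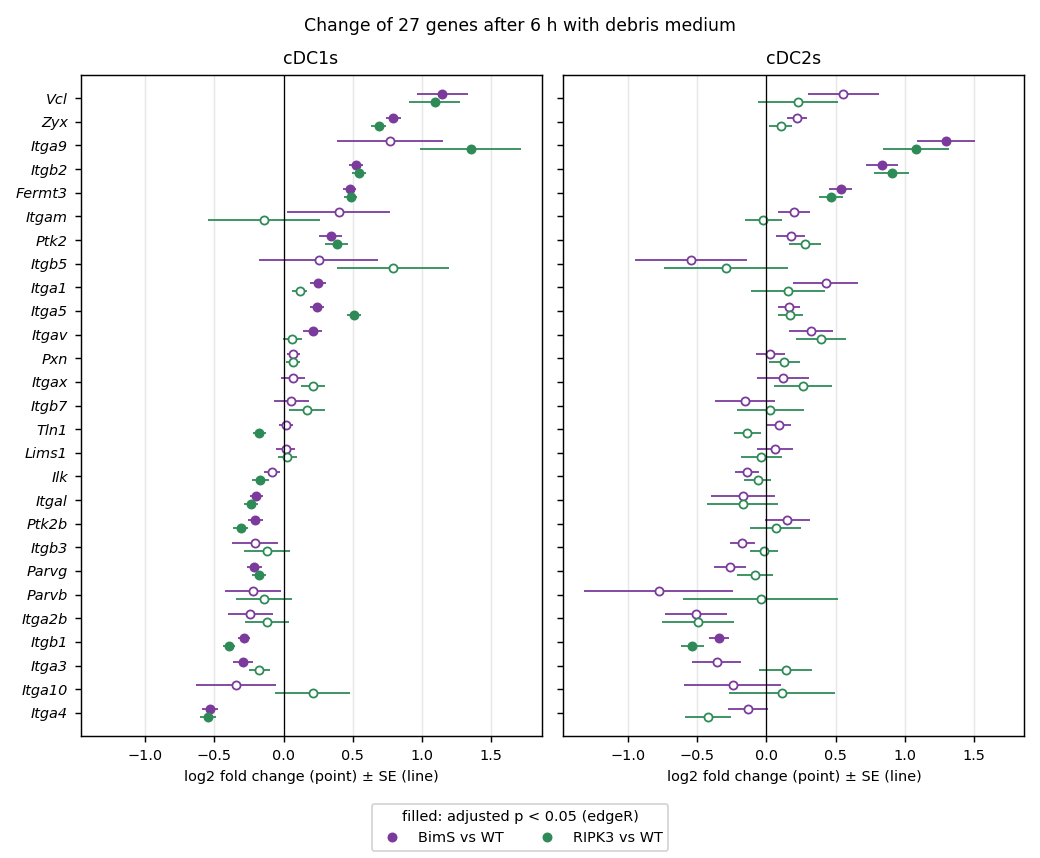
log2 fold change against WT medium (point) with its standard error (line) for 27 members that were measurable in both subsets, with BimS medium (purple) and RIPK3 medium (green), in cDC1s (left) and cDC2s (right). Filled points passed the test without the replicate block. Vcl and Zyx are filled with both media in cDC1s and open in cDC2s. Itgb2, Fermt3 and Itgb1 are filled with both media in both subsets, and Itga9 is filled with both media in cDC2s and with RIPK3 medium alone in cDC1s.

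Among the cytoplasmic members, vinculin and zyxin rose most in cDC1s. Vcl, which links talin to actin under load (chr14:20979449-21083758), was at 52.3, 52.6 and 41.0 CPM with WT medium, 118, 106 and 98.9 CPM with BimS medium and 123, 106 and 80.8 CPM with RIPK3 medium. All 6 samples with dying cells were above the 3 with live cells. The log2 fold change was 1.15 (SE 0.182, adjusted p = 7.29e-03) with BimS medium and 1.09 (SE 0.183, adjusted p = 7.53e-03) with RIPK3 medium. Ap3m1 on the opposite strand covers 24.6% of the exon bases of Vcl and had 5112 reads in cDC1s against 15473 for Vcl, and whether the counting used strand is not given in the sources used here.

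Zyx, a LIM protein found at strained adhesions and actin fibres (chr6:42301575-42339894), was at 212, 200 and 221 CPM with WT medium, 377, 338 and 385 CPM with BimS medium and 350, 318 and 353 CPM with RIPK3 medium. Again no sample with dying cells reached the range of the live medium. Its log2 fold change was 0.80 (SE 0.0539, adjusted p = 1.11e-13) with BimS medium and 0.69 (SE 0.0539, adjusted p = 2.99e-12) with RIPK3 medium.

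As these 2 members moved together in cDC1s, their promoters are shown, from 250 bases before to 50 bases after the start site as RefSeq gives it on GRCm38.p6. Both strands were searched for the CArG box, the sequence bound by serum response factor, and for the AP-1 site TGANTCA, and the 2 motifs did not overlap. Capitals mark the CArG box in the promoter of Vcl (chr14:20929148-20929447, plus strand), at -227 to -218, and the AP-1 match in that of Zyx (chr6:42349578-42349877, plus strand), at -121 to -115.
Vcl: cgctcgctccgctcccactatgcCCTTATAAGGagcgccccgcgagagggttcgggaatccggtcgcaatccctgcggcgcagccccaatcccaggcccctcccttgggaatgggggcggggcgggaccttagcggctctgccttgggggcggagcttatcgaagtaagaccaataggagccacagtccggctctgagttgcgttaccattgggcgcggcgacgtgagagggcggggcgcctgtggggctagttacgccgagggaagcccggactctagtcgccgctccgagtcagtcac
Zyx: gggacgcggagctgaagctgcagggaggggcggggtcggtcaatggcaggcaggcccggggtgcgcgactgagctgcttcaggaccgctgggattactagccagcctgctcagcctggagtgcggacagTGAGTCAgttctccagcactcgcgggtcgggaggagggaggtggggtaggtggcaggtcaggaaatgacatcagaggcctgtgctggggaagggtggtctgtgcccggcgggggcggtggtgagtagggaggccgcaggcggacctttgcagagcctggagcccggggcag
A CArG box is in 1.63% and the AP-1 letters are in 7.81% of all 32851 promoters of this length. RefSeq promoters were matched for 26 of the 38 members, 32 promoters in all. Of these members, 3 held a CArG box (Vcl, Itgb6 and Fermt2) and 4 held the AP-1 letters (Itga3, Itga9, Itgax and Zyx). The promoter matched to Itga9 may belong to a start site inside the gene. A match is a match of letters alone, and neither promoter shown holds the motif of the other.

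Fermt3, which binds the beta tails beside talin (chr19:6974559-6996837), rose in both subsets. In cDC1s it was at 394, 384 and 387 CPM with WT medium, 568, 522 and 533 CPM with BimS medium and 536, 538 and 556 CPM with RIPK3 medium. The levels in cDC2s were 301, 327 and 347 CPM with WT medium, 444, 461 and 512 CPM with BimS medium, and 444 and 459 CPM with RIPK3 medium. Samples with live and with dying cells did not overlap in either subset. The log2 fold changes were 0.48 (SE 0.0456, adjusted p = 2.77e-10) and 0.49 (SE 0.0456, adjusted p = 1.54e-10) in cDC1s, and 0.54 (SE 0.0807, adjusted p = 1.75e-04) and 0.47 (SE 0.0893, adjusted p = 1.73e-03) in cDC2s, with BimS and RIPK3 medium in that order.

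The 2 main beta chains moved in opposite directions. Itgb2, the beta chain of the leukocyte receptors (chr10:77366086-77401542), was at 149, 161 and 154 CPM in cDC1s with WT medium, 212, 227 and 226 CPM with BimS medium and 215, 231 and 230 CPM with RIPK3 medium. The levels in cDC2s were 82.8, 106 and 101 CPM with WT medium, 154, 191 and 173 CPM with BimS medium, and 161 and 204 CPM with RIPK3 medium. It was higher with dying cells in every sample of both subsets. The log2 fold changes were 0.52 (SE 0.0499, adjusted p = 3.04e-10) and 0.54 (SE 0.04996, adjusted p = 8.85e-11) in cDC1s, and 0.84 (SE 0.113, adjusted p = 1.11e-04) and 0.91 (SE 0.124, adjusted p = 1.01e-04) in cDC2s.

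Itgb1 (chr8:129411876-129460618) was at 1086, 1083 and 1077 CPM in cDC1s with WT medium, 874, 910 and 881 CPM with BimS medium and 793, 845 and 830 CPM with RIPK3 medium. The levels in cDC2s were 1180, 1106 and 1113 CPM with WT medium, 896, 908 and 874 CPM with BimS medium, and 814 and 759 CPM with RIPK3 medium. In both subsets the 3 media gave separate ranges, highest with live cells and lowest with RIPK3 medium. It fell with BimS medium by 0.28 (SE 0.0435, adjusted p = 5.79e-06) and with RIPK3 medium by 0.39 (SE 0.0435, adjusted p = 6.30e-09) on the log2 scale in cDC1s. In cDC2s it fell by 0.35 (SE 0.0731, adjusted p = 4.56e-03) and by 0.54 (SE 0.0829, adjusted p = 1.91e-04).

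The alpha chains that pair with these beta chains did not follow one direction. Itga4, the chain of VLA-4 that binds VCAM-1 and fibronectin (chr2:79085660-79163467), was at 122, 114 and 122 CPM in cDC1s with WT medium, 76.3, 86.7 and 84.2 CPM with BimS medium and 81.1, 86.9 and 76.2 CPM with RIPK3 medium. Every cDC1 sample with dying cells was lower, and Itga4 fell by 0.53 (SE 0.0576, adjusted p = 5.51e-09) and by 0.55 (SE 0.0578, adjusted p = 2.16e-09) on the log2 scale. In cDC2s Itga4 was at 221, 183 and 144 CPM with WT medium, 186, 172 and 142 CPM with BimS medium, and 142 and 132 CPM with RIPK3 medium, and did not pass the test without the replicate block. With the block it was lower in cDC2s with RIPK3 medium (-0.54, adjusted p = 8.02e-23), in DESeq2 too, and in edgeR with BimS medium (-0.12, adjusted p = 0.0296). The subsets also differed in its level, with a log2 difference of -0.80 between cDC1s and cDC2s (SE 0.0836, adjusted p = 1.76e-07).

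Itga5, the chain of the fibronectin receptor (chr15:103252713-103275270), rose where Itga4 fell. It was at 87.7, 87.9 and 84.4 CPM in cDC1s with WT medium, 106, 99.1 and 102 CPM with BimS medium and 129, 124 and 118 CPM with RIPK3 medium. The 3 media did not overlap, and the log2 fold change against WT medium was 0.24 (SE 0.0529, adjusted p = 1.10e-03) with BimS and 0.51 (SE 0.0527, adjusted p = 1.42e-09) with RIPK3 medium. In cDC2s it was at 118, 122 and 115 CPM with WT medium, 143, 130 and 126 CPM with BimS medium, and 129 and 139 CPM with RIPK3 medium. Live and dying media did not overlap there either, but without the block Itga5 did not pass the test in cDC2s (0.16, adjusted p = 0.297, and 0.17, adjusted p = 0.339). With the block it passed with BimS medium (0.16, adjusted p = 3.18e-03).

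Itga9, which pairs with Itgb1 as a receptor for tenascin and osteopontin (chr9:118435722-118730072), changed as much as Vcl, at very low levels. In cDC2s it was at 2.21, 1.61 and 1.67 CPM with WT medium, 3.71, 5.19 and 4.65 CPM with BimS medium, and 3.43 and 4.39 CPM with RIPK3 medium. Live and dying media did not overlap, and the log2 fold changes were 1.30 (SE 0.211, adjusted p = 3.88e-04) and 1.08 (SE 0.239, adjusted p = 6.20e-03). In cDC1s it was at 0.149, 0.610 and 0.674 CPM with WT medium, 0.917, 0.701 and 0.876 CPM with BimS medium and 1.11, 1.41 and 1.21 CPM with RIPK3 medium. There it passed with RIPK3 medium alone (1.35, SE 0.362, adjusted p = 6.43e-03), although all BimS samples were above the WT samples too. With the replicate block it was at 0.79 with BimS medium (edgeR, adjusted p = 0.166). Between RIPK3 and BimS medium it was at 0.58 with the block (edgeR, adjusted p = 0.332), and it did not pass without the block either. The call in cDC1s with RIPK3 medium rested on WT replicate 1, without which the log2 fold change was 0.94 (adjusted p = 0.0787). In cDC2s with RIPK3 medium the log2 fold change was 0.89 without RIPK3 replicate 2, which left 1 sample in that group.

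**Figure D3:**
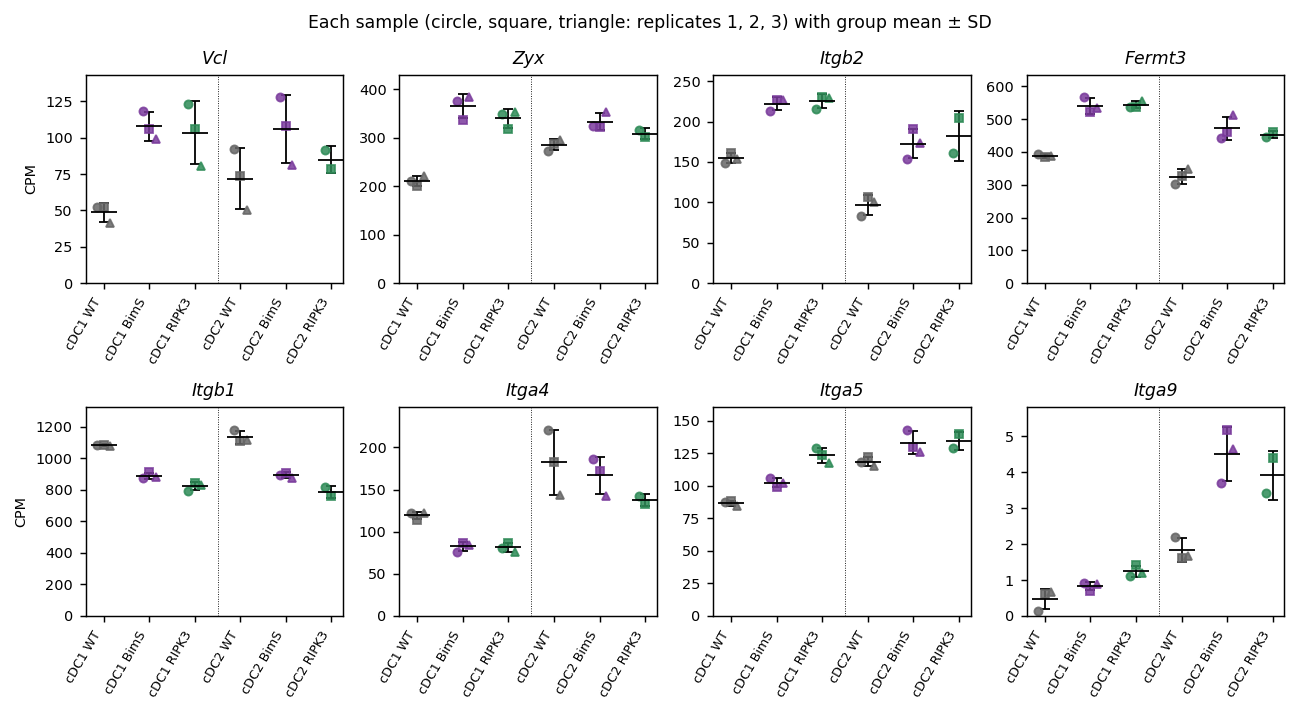
CPM of 8 members in every sample, with group mean and SD as a bar, for cDC1s left of the dotted line and cDC2s right of it, in WT (grey), BimS (purple) and RIPK3 (green) medium. Symbols mark the replicate numbers. In cDC1s all samples with dying cells lie above the WT samples for Vcl, Zyx, Itgb2, Fermt3, Itga5 and Itga9, and below them for Itgb1 and Itga4.

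The other members called in cDC1s changed by 0.38 or less on the log2 scale. Itgal fell with both media, by 0.20 and 0.24, although its partner Itgb2 rose. The kinases went apart: Ptk2 rose by 0.34 and 0.38, while Ptk2b, the form most used by blood cells, fell by 0.21 and 0.31. Parvg, the parvin of blood cells, fell by 0.21 and 0.18. Itga1 (0.25), Itgav (0.21) and Itga3 (-0.29) passed with BimS medium but not with RIPK3 medium, where they were at 0.12, 0.06 and -0.17. Tln1 (-0.17) and Ilk (-0.17) passed with RIPK3 medium but not with BimS medium, where they were at 0.02 and -0.09. Of these 5, the direct test between RIPK3 and BimS medium called Tln1, and with the block Itga1 as well. With the block Itga1 (0.11, adjusted p = 0.0444), Itga3 (-0.18, adjusted p = 7.14e-03) and Itgax (0.21, adjusted p = 4.73e-05) also passed with RIPK3 medium against WT medium, and of these DESeq2 with the block called Itgax. Leaving out 1 sample ended several of these calls, with adjusted p up to 0.243 (edgeR). With RIPK3 medium these were Ilk (without any 1 of the WT samples, BimS replicate 3 or RIPK3 replicate 1 or 2), Parvg (WT replicate 1 or 3, RIPK3 replicate 1 or 2) and Tln1 (WT replicate 1, RIPK3 replicate 3). With BimS medium they were Itgav (WT replicate 1 or 3, BimS replicate 2), Ptk2 (WT replicate 1), and Ptk2b and Parvg (WT replicate 3). Taf10 on the opposite strand covers 77.4% of the exon bases of Ilk and had 11318 reads in cDC1s against 13266 for Ilk. Itgb7, Pxn and Lims1, all well measured, did not pass with either medium, with or without the block, and nor did Itgax without it.

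In cDC2s the members that passed were Itgb2, Fermt3 and Itga9 upward and Itgb1 downward, with each of the 2 media. That is 4 of 35 members (11.4%), against 7.01% of all genes with BimS medium and 7.21% with RIPK3 medium. Among genes with a mean log2 CPM of 3 or more it was 3 of 21 members (14.3%), against 13.2% and 13.6%, a share near that of other genes of that level. With limma on unscaled log2 counts the 4 calls with RIPK3 medium were 2 higher and 2 lower, in place of 3 and 1, against 8.32% of all genes. Vcl was at 92.1, 73.6 and 49.96 CPM with WT medium, 128, 108 and 81.6 CPM with BimS medium, and 91.7 and 78.2 CPM with RIPK3 medium. Replicate 1 was the highest sample of each medium, and the groups overlapped (0.56, adjusted p = 0.336, and 0.23, adjusted p = 0.777). Zyx was at 274, 286 and 296 CPM with WT medium, 324, 322 and 353 CPM with BimS medium, and 316 and 301 CPM with RIPK3 medium, without overlap of live and dying media (0.22, adjusted p = 0.0920, and 0.10, adjusted p = 0.588).

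Samples of a subset with the same replicate number deviated together, and with the number as a block more members of cDC2s passed. With BimS medium there were 16, 9 higher and 7 lower, against 21.3% of all genes, and with RIPK3 medium 11, 7 higher and 4 lower, against 21.4%. The blocked fit of cDC2s left 3 residual degrees of freedom and gave most genes 1 shared estimate of the spread (an infinite prior), so its p-values rest on that estimate. DESeq2 with the block, chosen after seeing this, called 9 members with BimS medium and 9 with RIPK3 medium, against 12.2% and 12.1% of all genes. Both blocked tools added Itga1 (0.42 in edgeR), Itga5 (0.16), Itgav (0.33), Vcl (0.57) and Zyx (0.22) upward with BimS medium. With RIPK3 medium both added Itga4 (-0.54) and Tln1 (-0.21) downward and Itgav (0.26), Itgax (0.23) and Zyx (0.13) upward.

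Between apoptotic and necroptotic medium few members passed without the replicate block, and more passed with it in edgeR. In cDC1s 2 of 37 members (5.41%) passed between RIPK3 and BimS medium, against 4.15% of all genes. Itga5 was higher with RIPK3 medium by 0.27 (SE 0.0523, adjusted p = 1.13e-03), with every RIPK3 sample above every BimS sample. With limma on log2(count + 1) this was 0.19 (adjusted p = 0.474) and no member passed, while over the other alternatives its adjusted p stayed at or under 9.68e-03. Tln1 was at 721, 669 and 603 CPM with RIPK3 medium and 750, 762 and 764 CPM with BimS medium, lower by a log2 difference of -0.19 (SE 0.0497, adjusted p = 0.0187). With the replicate block 5 members passed, 2 higher and 3 lower, against 8.87% of all genes, with Itgax (0.15), Itga1 (-0.14) and Itgb1 (-0.11) in addition, while DESeq2 with the block called Itga5 and Tln1 alone, against 3.83%. Leaving out single samples left Itga5 alone in 3 cases (BimS replicate 2, BimS replicate 3 or RIPK3 replicate 3), against 3.29%, 2.42% and 4.47% of all genes. Without RIPK3 replicate 1 the count rose to 4, against 5.09%. Vcl and Zyx did not pass between the modes of death, with Vcl at -0.06 (95% interval -0.40 to 0.29, adjusted p = 0.933) and Zyx at -0.11 (SE 0.0533, adjusted p = 0.335).

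In cDC2s no member passed between RIPK3 and BimS medium by edgeR, DESeq2 or limma, against 0.379% of all genes, and 3 had an unadjusted p under 0.05. With the replicate block 9 members passed, 2 higher and 7 lower, against 14.3% of all genes, and with DESeq2 and the block 6 passed, all lower with RIPK3 medium, against 6.93%. Called by both were Itga1 (-0.43 in edgeR), Itga4 (-0.42), Itgam (-0.29), Itgb1 (-0.21), Tln1 (-0.30) and Vcl (-0.52).

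The change with dying cells was then compared directly between subsets, as the effect in cDC1s minus that in cDC2s. Zyx alone passed, with a difference of 0.57 (95% interval 0.39 to 0.75, adjusted p = 6.87e-04) with BimS medium and 0.58 (0.38 to 0.77, adjusted p = 1.10e-03) with RIPK3 medium. This is 1 of 36 members (2.78%) in each, against 0.870% and 1.14% of all genes. Vcl differed by 0.59 and 0.85, with intervals from -0.06 to 1.23 and from 0.16 to 1.54, and did not pass (adjusted p = 0.712 and 0.502). Itgb2 leaned the other way, at -0.32 and -0.37, and did not pass either (adjusted p = 0.410 and 0.298). With the replicate block set within each subset, an alternative chosen after seeing the data, 5 members passed with BimS medium, against 5.02% of all genes. Zyx and Vcl (0.58) were the members with a higher value in cDC1s, and Itgb2 (-0.32), Itga4 (-0.41) and Ptk2b (-0.35) those with a lower one. With RIPK3 medium 4 passed, against 5.05%, with Zyx, Vcl (1.01) and Itga5 (0.36) higher and Itgb2 (-0.39) lower. DESeq2 with this block called the same members, against 3.08% and 3.12% of all genes. For Itgb1 and Fermt3 the differences were 0.06 and -0.06 with BimS medium and 0.13 and 0.01 with RIPK3 medium, with intervals that reached no further than 0.30 from 0 in either direction. Between RIPK3 and BimS medium no member passed without the block by edgeR, DESeq2 or limma, against 0.0314% of all genes, and 2 had an unadjusted p under 0.05. With the block within each subset 4 passed, against 2.37% of all genes, of which DESeq2 called Itga4 (0.39) and Vcl (0.43) as well, against 1.03%, and Itga1 (0.28) and Itga5 (0.28) were called by edgeR alone.

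Other genes of the pathway were taken from 4 lists. Of the 3 integrin chains that are not members, Itgb2l was not tested. Itgae (CD103), the E-cadherin receptor chain typical of cDC1s, was between 41.1 and 48.6 CPM in cDC1s with WT medium, between 29.0 and 35.1 CPM with BimS medium and between 23.5 and 25.3 CPM with RIPK3 medium. The 3 media did not overlap, and it fell by 0.45 (adjusted p = 1.59e-05) and by 0.84 (adjusted p = 6.92e-11) against WT medium, and by 0.38 between RIPK3 and BimS medium (adjusted p = 1.91e-03). Itgb8, whose receptor with alpha V activates TGF-beta, was between 1.46 and 1.72 CPM in cDC2s with WT medium, between 5.13 and 7.78 CPM with BimS medium and between 1.82 and 2.97 CPM with RIPK3 medium. It was higher in every BimS sample, by 2.01 against WT medium (SE 0.223, adjusted p = 5.26e-06), and lower with RIPK3 than with BimS medium by 1.40 on the log2 scale (adjusted p = 0.0107). In cDC1s it was between 0.199 and 0.674 CPM with WT medium, between 0.608 and 1.19 CPM with BimS medium and between 0.354 and 0.502 CPM with RIPK3 medium, and passed with BimS medium there as well (1.35, adjusted p = 0.0261), although the samples overlapped.

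Of 46 adaptors and actin linkers, 6 passed upward and 7 downward in cDC1s with BimS medium, and 7 upward and 12 downward with RIPK3 medium. These are 28.3% and 41.3% of the list, against 13.2% and 16.5% of all genes. Among genes with a mean log2 CPM of 3 or more they were 13 of 35 (37.1%) and 18 of 35 (51.4%), against 25.8% and 31.7%. The largest rises were those of Asap2 (0.60 and 0.47), Nck2 (0.56 and 0.65) and Pdlim7 (0.34 and 0.66), a regulator of Arf, an SH2 and SH3 adaptor and a LIM protein of actin fibres. Evl, which extends actin filaments, fell by 0.54 and by 0.42. In cDC2s 3 of 45 passed upward and 4 downward with BimS medium, and 5 and 1 with RIPK3 medium (15.6% and 13.3%, against 7.01% and 7.21%, and 14.3% and 17.1% of 35 at the higher level, against 13.2% and 13.6%), with Nck2 higher in both (0.76 and 0.43). Of 15 activators and inhibitors tested in cDC1s, 3 rose and 4 fell with BimS medium, and 1 rose and 3 fell with RIPK3 medium (46.7% and 26.7%, and 7 and 4 of the 13 at the higher level). Rassf5, the effector through which Rap1 acts on LFA-1, fell by 0.28 and by 0.34. Of 16 counter-receptors and ligands tested in cDC1s, 1 fell with BimS medium and 1 rose and 1 fell with RIPK3 medium (6.25% and 12.5%). In cDC2s Thbs1, a matrix ligand of several integrins, was between 46.8 and 52.3 CPM with WT medium, between 133 and 162 CPM with BimS medium, and at 132 and 144 CPM with RIPK3 medium, and rose by 1.55 (adjusted p = 1.86e-09) and by 1.48 (adjusted p = 9.01e-09).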

How the data were processed

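Polyadenylated RNA of 17 sorted samples was sequenced as paired-end reads. The deposited counts per gene were made by the authors by trimming with SeqPurge, alignment to GRCm39 with STAR 2.7.10a and Ensembl gene models and counting with gensum, and were not normalized. The 148 lines with no gene identifier were left out. A deposited table of log2 values was made by the authors from the same counts and was not used here. Symbols, positions and exon lengths came from GENCODE M39, which matched 30854 identifiers. Totals per sample limit the precision at low counts, and as the reads carry no molecular identifiers intervals from counts cover counting error only.

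The count model was the quasi-likelihood test of edgeR 4.0.16 in R 4.3.3 (robust, TMM), run on genes with reads in at least 50% of the samples of a fit. Adjustment was by Benjamini and Hochberg across every gene tested, at a threshold of 0.05, and an adjusted p without a named tool comes from edgeR. The study used limma on its count matrix and gives a log2(count + 1) transform apart from it. limma is among the alternatives here because counts call for a count model. The 9 cDC1 and 8 cDC2 samples were fitted separately, and all 17 together for the subsets and for the interactions. Alternatives were DESeq2 1.42.0, RLE size factors, filterByExpr, no filter, limma 3.58.1 on log2(count + 1), the replicate block, each sample left out in turn, and, added later, DESeq2 with the block. The fits were tested on simulated data.

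The members and lists were chosen with earlier results of these data known. Values of every sample are given for members called in at least 1 comparison of media with a log2 fold change of at least 0.5, for the 4 largest differences between subsets in each direction, and for Itga5, Itga9, Itgax and Itgam. The background of genes with a mean log2 CPM of 3 or more was a later choice, made with the values in view.

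Pairing was checked from the samples' deviations from their group means. Inside a subset the correlation was over 0.1 in 16 of 16 pairs that shared a replicate number (median 0.355) and in 4 of 32 that did not (median -0.188), so the numbers were taken to pair the samples of a subset. Across subsets it was over 0.1 in 19 of 24 pairs with the same number (median 0.210) and in 5 of 48 with different numbers (median -0.101). The numbers thus paired samples across subsets too, less closely. The main fits over both subsets did not use this pairing. Alternatives to them were the replicate block and, for the interactions, a block within each subset. The labels do not say what a number shares.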

Additional observations from a re-analysis of the deposited data

Results flagged for a closer look

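The response of Zyx to dying tumor cells differed between the subsets by a direct test. The change in cDC1s exceeded that in cDC2s by 0.57 on the log2 scale with BimS medium (edgeR, adjusted p = 6.87e-04) and by 0.58 with RIPK3 medium (edgeR, adjusted p = 1.10e-03). In cDC1s all 6 samples with dying cells were above all 3 with live cells, and so were all 5 in cDC2s, with smaller differences. The 2 tests share the WT samples of each subset.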

How the results depend on the processing

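Of 1204 values of the 63 calls of single members under the alternatives, 1160 kept their sign and their call, 44 kept the sign and lost the call, and 0 reversed. Of the lost ones 23 came from leaving out 1 sample, over 10 of the calls, and 21 from other alternatives, over 14. With limma on log2(count + 1) the count in cDC1s was 7 with BimS against WT medium and 0 between RIPK3 and BimS medium. There Itga1, Itga5, Itgav, Itgal, Parvg, Ptk2 and Ptk2b (BimS against WT medium), Ilk and Ptk2 (RIPK3 against WT medium) and Itga5 and Tln1 (RIPK3 against BimS medium) in cDC1s, Fermt3 in cDC2s with RIPK3 medium, and Itga5 and Itgav between subsets lost the call. DESeq2 ended those of Itgav (BimS medium), Ilk and Tln1 (RIPK3 against BimS medium) in cDC1s, and with the block those of Itgav and Ilk, and RLE size factors and filterByExpr that of Ilk. Without normalization the median of limma over all genes shifted by -0.123 in cDC1s and -0.174 in cDC2s with RIPK3 medium and by 0.201 between subsets. The cause of the lost calls was not tested.

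DESeq2 called 1 member in cDC1s between RIPK3 and BimS medium, against 3.20% of all genes. Without a filter the interaction with BimS medium gave 2, against 1.01%. With the replicate number as a block, edgeR called 5 members in cDC1s between RIPK3 and BimS medium, and 16, 11 and 9 in cDC2s (BimS against WT, RIPK3 against WT, RIPK3 against BimS medium). In the interactions with BimS and RIPK3 medium it called 3 and 4, against 2.32% and 2.35% of all genes. DESeq2 with the block gave 9, 9 and 6 in cDC2s, and 3 and 4 in those interactions, against 2.09% and 2.20%. This block ties samples across the subsets, where the numbers pair less closely. With a replicate block within each subset edgeR gave 5, 4 and 4 members in the interactions with BimS, with RIPK3 and between RIPK3 and BimS medium, and DESeq2 gave 5, 4 and 2. In edgeR the block ended no call of a single member.

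Leaving out each sample in turn gave 1 to 4 members in cDC1s between RIPK3 and BimS medium and 1 to 2 in the interaction with BimS medium, where 2 came without cDC2 WT replicate 1 (Itga4 in addition). The 8 members too rare in both subsets held 8.33 reads or fewer per sample on average in any group. Whether they were not expressed or only below the reach of this depth was not tested.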
